A study of Homo sapiens with 6 samples.

Results

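Protocadherins are cadherin-like cell surface proteins, and they were followed here in the human neuroblastoma line BE(2)-C, kept for 2 days with 10 µM NCT-503 or with the vehicle DMSO. NCT-503 blocks PHGDH, the enzyme that opens serine synthesis. RNA was measured on 6 single-colour Affymetrix whole-transcript arrays, 1 sample per array, in 3 NCT-503 and 3 DMSO samples. The samples are described as independent, but nothing says whether each came from its own culture, so a p-value here reflects variation among these 6 samples, which may be technical. The number of arrays limits the precision. A gene counted as a protocadherin if its symbol is PCDH followed by a digit or starts with PCDHA, PCDHB or PCDHG, without pseudogenes or antisense RNAs. This gave 29 of the 14779 genes tested, namely 16 of the beta cluster (PCDHB1 to PCDHB16) and 13 single genes, each with 1 row of the table. No named row belonged to the alpha or gamma cluster, which were not analysed here.

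The clustered protocadherins lie in tandem arrays on chromosome 5. Each beta gene is a single coding exon with a promoter of its own, and neurons switch on different combinations of these promoters, a choice in which the insulator protein CTCF, the cohesin ring and DNA methylation take part. On the cell surface the clustered proteins bind copies of themselves, which lets sister branches of a neuron recognise and avoid each other. The single protocadherins are scattered over the genome and fall into a delta-1 class (PCDH1, PCDH7, PCDH9, PCDH11X, PCDH11Y), a delta-2 class (PCDH8, PCDH10, PCDH17, PCDH18, PCDH19) and a few others (PCDH12, PCDH15, PCDH20). Delta-2 proteins such as PCDH10, PCDH17 and PCDH19 can recruit the WAVE complex, which drives actin assembly at the membrane.

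The promoters of the beta genes share a sequence, and the following windows show it in PCDHB15, the beta gene that fell, in PCDHB10 and PCDHB16, which did not pass the test, and in PCDHB1, the beta promoter without the exact motif. PCDH9 and PCDH17, the single genes with the largest rise and the largest fall, are shown for contrast. Each is the 120 bases before an annotated start, 5′ to 3′ on the gene's strand, from RefSeq (GRCh38.p14), and capitals mark the motif GGTGGCGCT or, in PCDHB1, its nearest match.
PCDHB15: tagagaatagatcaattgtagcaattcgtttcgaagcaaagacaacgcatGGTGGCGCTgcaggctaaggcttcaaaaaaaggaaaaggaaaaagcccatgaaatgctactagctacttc
PCDHB10: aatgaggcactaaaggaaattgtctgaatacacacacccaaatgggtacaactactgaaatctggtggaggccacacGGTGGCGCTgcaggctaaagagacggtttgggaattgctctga
PCDHB16: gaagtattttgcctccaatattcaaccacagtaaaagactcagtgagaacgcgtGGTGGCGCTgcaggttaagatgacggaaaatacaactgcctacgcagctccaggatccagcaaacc
PCDHB1: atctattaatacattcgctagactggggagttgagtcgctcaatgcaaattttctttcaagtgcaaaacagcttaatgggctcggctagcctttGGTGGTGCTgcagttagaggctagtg
PCDH9: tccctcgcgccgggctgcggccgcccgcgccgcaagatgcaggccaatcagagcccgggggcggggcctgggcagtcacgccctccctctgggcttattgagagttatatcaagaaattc
PCDH17: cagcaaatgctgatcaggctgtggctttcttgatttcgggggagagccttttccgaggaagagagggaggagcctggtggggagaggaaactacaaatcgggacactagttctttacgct

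The windows lie at chr5:141245275-141245394 for PCDHB15, chr5:141192233-141192352 for PCDHB10, chr5:141182267-141182386 for PCDHB16 and chr5:141051254-141051373 for PCDHB1, all on the plus strand. The PCDH9 window is chr13:67230337-67230456 on the minus strand, and the PCDH17 window is chr13:57631624-57631743 on the plus strand. The motif was not known beforehand: it was the 9-base run that most beta promoters held on the gene's strand, in windows of 250 bases before and 50 after the start. It ends in CGCT, the core of the conserved element that CTCF is known to bind upstream of clustered protocadherins.

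Promoter windows were matched for 25 of the 29 members, 14 of them beta genes. Of those 14, 13 held GGTGGCGCT once, always on the gene's strand, with its first base at positions -84 to -2 (median -66, the annotated start being 0). PCDHB1 held it with 1 substitution, C6T (counted from the motif's 5′ end), at position -26. Among 27305 promoters of the same length, 1 per gene, 143 (0.524%) held it on either strand. None of the 11 single protocadherin promoters held it, nor did any of 13 alpha and 20 gamma cluster promoters. On either strand, CGCT alone was in 14 of 14 beta, 10 of 11 single, 12 of 13 alpha and 20 of 20 gamma promoters, and in 69.4% of all promoters. The beta windows were also poorer in G and C (33.3% to 46.3%) than the single ones (52.7% to 71.0%). These matches describe the sequences only, and no binding was measured.

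The label of the cells was checked first. Of 10 fixed markers of adrenergic neuroblastoma, 7 were measured, and in DMSO they lay between percentiles 65.1 and 98.9 of all genes, with HAND2, ISL1, DBH and CHGA at or above 97.9. With NCT-503, 3 of the 7 were called higher and 3 lower (limma adjusted p under 0.05). That is 85.7% called, against 33.5% of all genes (16.4% higher, 17.1% lower). Brighter genes were called more often: with the dimmer 50% of genes left out, 2153 of 7390 were called higher and 2377 lower. Markers of glia, epithelium and endothelium (8 measured) were all below the median gene in DMSO, and none was called. Of the immune markers CD68 alone was measured. It encodes a lysosomal protein that macrophages make in quantity. CD68 was at percentile 67.9 in DMSO and rose by 2.25 ± 0.095 (log2, SE). Of 5 measured mesenchymal markers, 4 were above the median gene in DMSO. SNAI2, TWIST1, VIM and FN1 were at percentiles 87.7, 79.6, 71.4 and 58.2, and PRRX1 was at 20.6. With NCT-503, 3 of the 5 rose and TWIST1 fell (80% called, against 33.5% of all genes). The summed log2 level of the 5 was 31.8 to 32.1 in NCT-503 arrays and 30.1 to 30.5 in DMSO arrays. The part of these genes in the changes below was not tested. In bulk RNA, fewer cells of a kind and less RNA per cell cannot be told apart.

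In DMSO-treated cells the protocadherins lay between 1.75 and 8.56, the highest at percentile 93.7 of all genes. Levels are deposited log2 values, and because probes differ in how well they bind, a level places a gene only roughly and gives no order between genes. The 16 beta genes lay between 2.81 (PCDHB1) and 7.55 (PCDHB16), with a median of 5.70, and 10 of them were above the median of the 14779 genes tested (5.02). PCDHB16, PCDHB10 and PCDHB4 stood at percentiles 85.0, 81.4 and 74.4 of all genes, whereas PCDHB1 stood at percentile 13.2. Beta genes are close paralogs, so probes may not separate all of them.

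The 12 single genes without the Y-linked PCDH11Y spread further in DMSO, between 1.75 (PCDH11X) and 8.56 (PCDH18). PCDH18, PCDH17 and PCDH9 were at percentiles 93.7, 93.6 and 92.0, PCDH10 was at 82.7, and PCDH19 and PCDH1 were at 68.7 and 61.5. The other 6 were below the median gene. Among these were PCDH15, which builds the tip links of hair cells, and PCDH12, known from endothelial cells, at percentiles 43.2 and 22.6. PCDH11X, the X-linked partner of PCDH11Y, was at percentile 2.48.

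With NCT-503, PCDH9 and PCDH1 rose most, PCDH17, PCDH19 and PCDH10 fell, and the beta cluster gave 1 call, a fall of PCDHB15. Genes were compared with limma across all 14779 genes, and a gene was called at a Benjamini-Hochberg adjusted p under 0.05. Of the 29 protocadherins 5 were called higher and 4 lower, against 33.5% of all genes (16.4% higher, 17.1% lower), so the family as a whole was called about as often as any gene. Groups did not overlap for 12 of the 29 members, against 47.9% of all genes. The calls were unevenly placed: 8 of the 13 single genes were called (61.5%), and 1 of the 16 beta genes (6.25%). The size of the changes differed too. The median absolute log2 change was 0.51 for the 12 single genes without PCDH11Y, 0.23 for the beta genes and 0.23 for all genes. Whether the classes differ was not tested.

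PCDH9, a delta-1 protocadherin of the developing and adult nervous system encoded on chromosome 13, had the largest change of the family. It measured 10.07, 10.09 and 10.16 in the NCT-503 arrays, against 8.25, 8.36 and 8.30 in the DMSO arrays. Every treated array lay above every DMSO array, and arrays of a group lay close together. The rise was 1.81 ± 0.07 (SE, 3 arrays per group), or 3.49-fold, with a limma adjusted p of 1.32e-05, and it was the rise of rank 24 among 14779 genes. PCDH9-AS2 and PCDH9-AS3, antisense RNAs at the same locus, were at low levels and were not called (0.23 and 0.48, limma adjusted p = 0.353 and 0.0700).

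PCDH1, another delta-1 gene that rose, is known from epithelia of the airway. It measured 7.33, 7.09 and 6.84 with NCT-503, against 5.78, 5.98 and 5.64 with DMSO. The groups did not overlap, although each spread more than for PCDH9. The change was 1.29 ± 0.14 (2.44-fold, limma adjusted p = 0.000640). PCDH7 did not pass, with 4.64 ± 0.08 in NCT-503 and 4.65 ± 0.03 in DMSO (mean ± SD, n = 3 each), and its 95% interval was -0.18 to 0.17. PCDH11X was near the floor of the table in both groups, at 1.56 ± 0.28 and 1.75 ± 0.23 (NCT-503 and DMSO). PCDH11Y was called higher (limma adjusted p = 0.0444), a call that held under 5 of 16 other settings.

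Delta-2 genes moved both ways, and 4 of the 5 were called. PCDH17, which in mouse takes part in synapse assembly, fell most. It measured 7.29, 7.38 and 7.66 in NCT-503 arrays, against 8.47, 8.53 and 8.66 in DMSO arrays. All treated arrays were below all DMSO arrays, and the change was -1.11 ± 0.11 (2.16-fold lower, limma adjusted p = 0.000468). PCDH17 lies on chromosome 13, as PCDH9 does, and the changes of the pair had opposite signs.

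PCDH19, an X-linked gene whose loss causes an epilepsy that affects mainly females, measured 5.53, 5.67 and 5.62 with NCT-503, against 6.13, 6.32 and 6.39 with DMSO. The groups did not overlap, and the change was -0.68 ± 0.09 (1.60-fold lower, limma adjusted p = 0.00156). PCDH10, an axon growth and adhesion gene that is often methylated in tumours, measured 6.76, 6.87 and 6.76 with NCT-503, against 7.36, 7.45 and 7.28 with DMSO. It too was lower in every treated array (-0.57 ± 0.08, 1.48-fold lower, limma adjusted p = 0.00174).

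PCDH18 was the delta-2 gene that rose. It measured 9.14, 9.16 and 9.19 with NCT-503, against 8.56, 8.57 and 8.54 with DMSO. Arrays of a group lay close together and the groups far apart, and the change was 0.60 ± 0.07 (1.52-fold, limma adjusted p = 0.000672). PCDH8, which in rat neurons is induced by synaptic activity, did not pass: NCT-503 arrays read 3.87, 4.21 and 3.67, against 3.70, 3.68 and 3.70 in DMSO. The NCT-503 arrays straddled the DMSO values, with array b the highest.

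**Figure D1:**
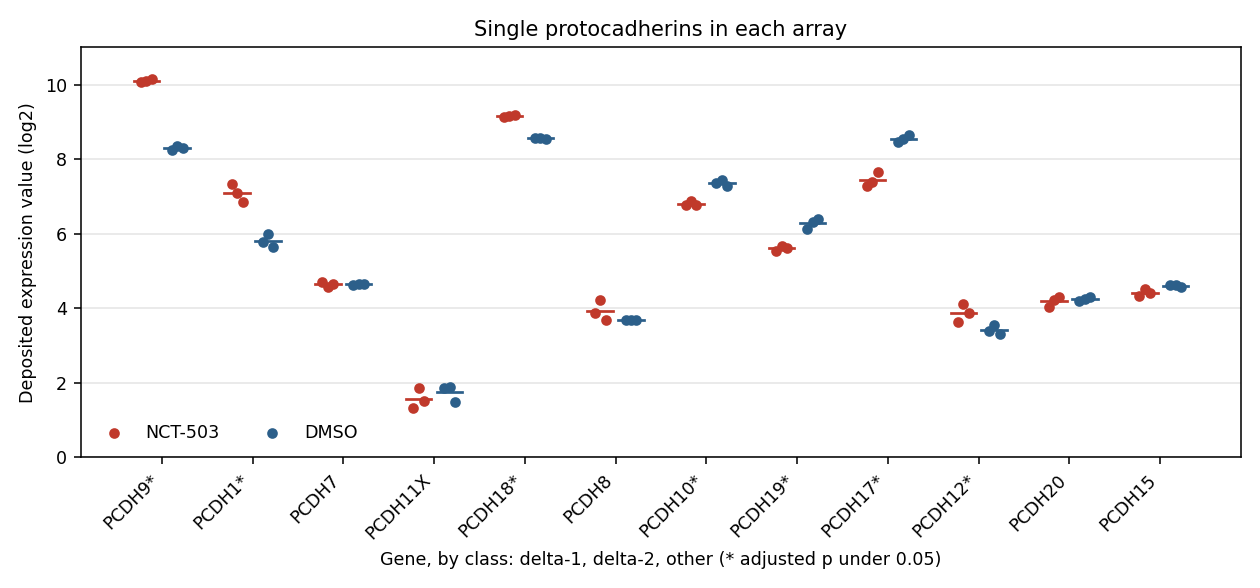
Deposited log2 expression values of 12 single protocadherins, with genes along the horizontal axis by class. Each point is an array, NCT-503 in red at the left and DMSO in blue at the right of each gene, bars are means of 3 arrays, and asterisks mark genes called at an adjusted p under 0.05. PCDH9 stands near 10.1 with NCT-503 and 8.3 with DMSO, without overlap.

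PCDH12, PCDH15 and PCDH20 complete the single genes. PCDH12 measured 3.62, 4.12 and 3.88 with NCT-503, against 3.40, 3.56 and 3.32 with DMSO. The groups lay close together without overlapping, and the change of 0.45 ± 0.14 was called at a limma adjusted p of 0.0403. PCDH1 and PCDH12 both lie on chromosome 5 beyond the clusters. The PCDH12 call was lost without DMSO a (adjusted p = 0.104), DMSO c (0.116), NCT-503 b (0.0968) or NCT-503 c (0.0938). PCDH15 was 4.41 ± 0.09 with NCT-503 and 4.61 ± 0.03 with DMSO, and PCDH20 was 4.18 ± 0.13 and 4.25 ± 0.06 (mean ± SD, n = 3 each). PCDH15 did not pass although its groups did not overlap (limma adjusted p = 0.0932).

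**Figure D2:**
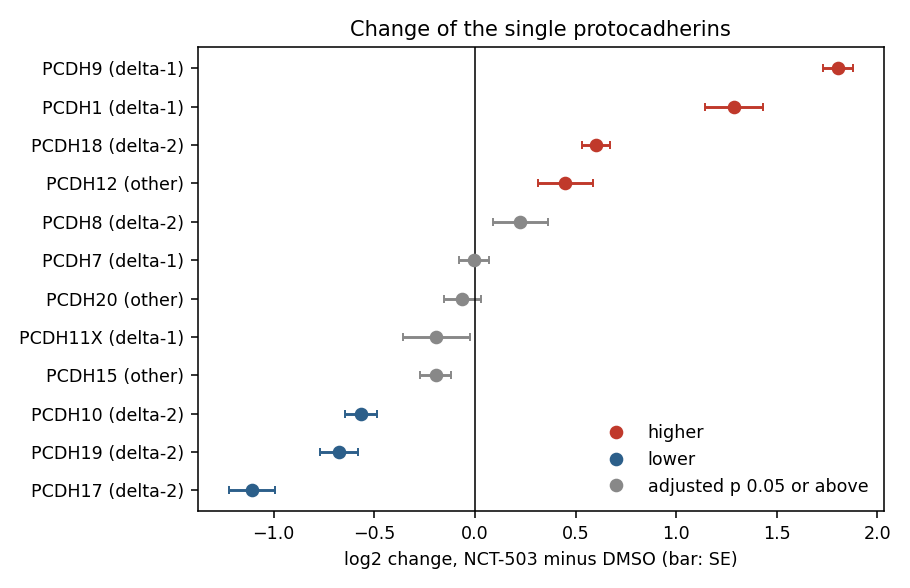
Log2 change, NCT-503 minus DMSO, of the same 12 single protocadherins in order of size, with bars for the standard error from limma (3 arrays per group). Red points were called higher, blue points lower and grey points not called. The changes run from -1.11 for PCDH17 to 1.81 for PCDH9.

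In the beta cluster, PCDHB15 fell and the other 15 genes did not pass the test. PCDHB15, the last gene of the cluster, measured 4.29, 4.29 and 4.07 with NCT-503, against 4.87, 4.97 and 5.08 with DMSO. Every treated array was below every DMSO array. The change was -0.75 ± 0.10 (1.69-fold lower, limma adjusted p = 0.00119), and it was called under each of the 17 other settings that tested the gene. Its level in DMSO was close to the median of the genes tested (percentile 49.3).

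PCDHB10 and PCDHB6 came nearest to a call among the others. PCDHB10 measured 7.10, 6.99 and 6.99 with NCT-503, against 7.21, 7.27 and 7.28 with DMSO (change -0.22 ± 0.07, limma adjusted p = 0.0541). PCDHB6 measured 5.42, 5.43 and 5.45 with NCT-503, against 5.25, 5.05 and 5.26 with DMSO (0.25 ± 0.08, limma adjusted p = 0.0604). In both genes the groups did not overlap. Each was called under 5 of 18 other settings.

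PCDHB16, the beta gene with the highest value in DMSO, read 7.54, 7.52 and 7.60 with NCT-503 and 7.63, 7.48 and 7.55 with DMSO, and its groups overlapped almost entirely. Of the 15 beta genes that were not called, 10 had a 95% interval inside a 1.5-fold change either way. The intervals of PCDHB5, PCDHB7, PCDHB8, PCDHB11 and PCDHB13 reached that limit. The lowest bound was -0.82 (PCDHB13) and the highest was 0.79 (PCDHB7), so a change of that size could not be told from none in these genes. Replicates of PCDHB11 and PCDHB13 spread widely: NCT-503 arrays read 4.60, 4.10 and 5.01 for PCDHB11, against 4.84, 4.71 and 4.84 in DMSO, and 3.71, 4.22 and 4.34 for PCDHB13, against 4.53, 3.99 and 4.64.

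**Figure D3:**
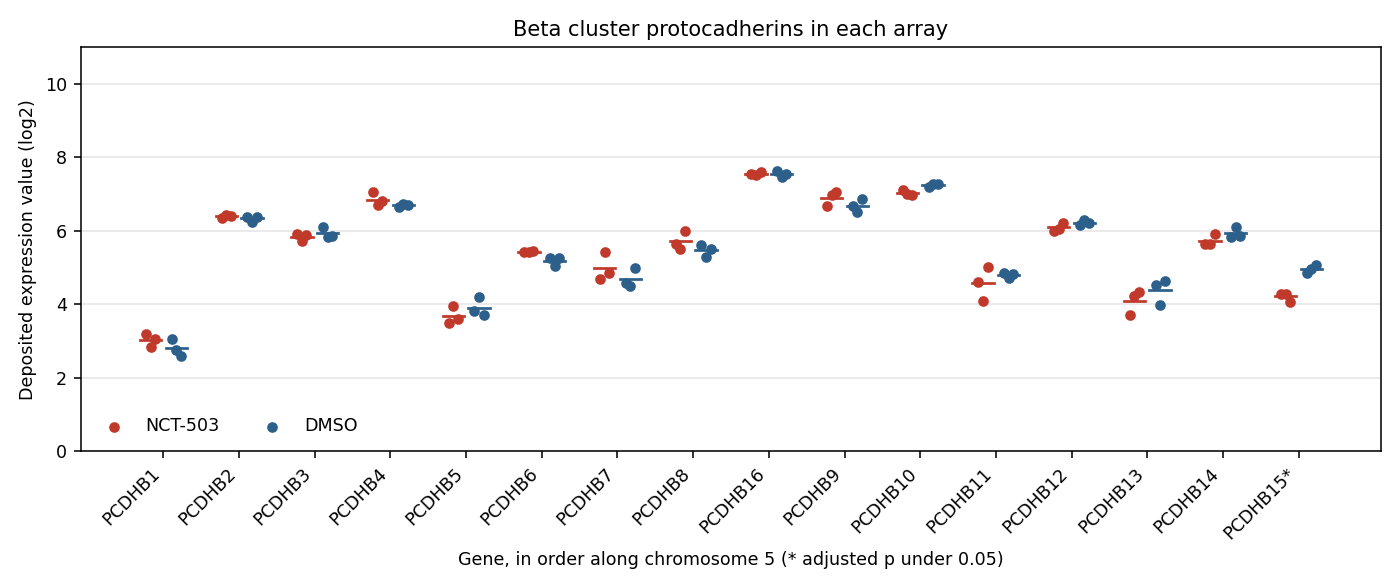
Deposited log2 expression values of the 16 beta cluster genes, in their order along chromosome 5 on the horizontal axis. Each point is an array, NCT-503 in red at the left and DMSO in blue at the right of each gene, bars are means of 3 arrays, and the asterisk marks a gene called at an adjusted p under 0.05. PCDHB15, at the far end, is the gene with the asterisk.

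Set in their order along the chromosome, the beta genes showed a sign pattern that was noticed after the values were seen and was given no test. From PCDHB10 at position 11 to PCDHB15 at position 16, all 6 changes were negative, between -0.13 and -0.75, and 1 of the 6 was called. Many of the other settings alter the test, filter or threshold and leave the log2 change as it is, so they cannot turn a sign. Under those that can move the change (weights, scaling, leaving out 1 array), the signs held, except that PCDHB11 was at 0.0064 without NCT-503 b. These fits reuse the arrays in which the pattern was noticed and add no separate support. Among the first 10 positions 7 changes were positive and none was called. PCDHB1, PCDHB4, PCDHB6, PCDHB7, PCDHB8 and PCDHB9 lay between 0.15 and 0.30 and PCDHB2 was at 0.06. PCDHB3 and PCDHB5 were at -0.10 and -0.24. Each of the 16 genes has a promoter of its own, and those printed above for PCDHB10, PCDHB15 and PCDHB16 hold the same motif, as do 13 of the 14 beta windows. The part of the motif in the changes was not tested.

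Pseudogenes were outside the family as defined but have rows between these genes. PCDHB18P and PCDHB19P, which lie between PCDHB14 and PCDHB15, were lower with NCT-503. PCDHB19P measured 5.62 ± 0.07 in NCT-503 and 6.13 ± 0.08 in DMSO (mean ± SD, n = 3 each; change -0.51, limma adjusted p = 0.00296). For PCDHB18P the change was -0.26 (limma adjusted p = 0.0482), and the call was lost when any 1 array was left out (adjusted p 0.0520 to 0.145). PCDHB17P, between PCDHB6 and PCDHB7, was not called (-0.09, limma adjusted p = 0.643).

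**Figure D4:**
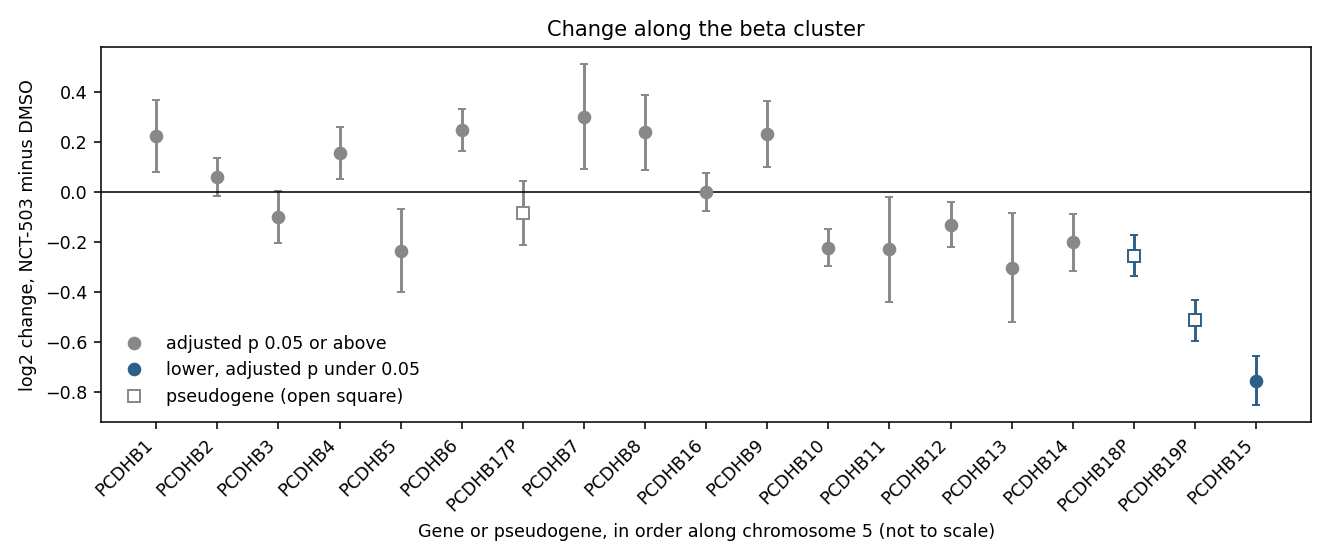
Log2 change, NCT-503 minus DMSO, along the beta cluster in chromosome order, with genes as circles, pseudogenes as open squares and bars for limma's standard error. Blue points were called lower and grey points were not called. The points from PCDHB10 onwards are all below 0, and PCDHB15 is the lowest at -0.75.

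Other genes of the same stretch of chromosome 5 went both ways. Of 20 fixed neighbours of the clusters 14 were measured, 3 rose and 2 fell (35.7% called, near the 33.5% of all genes; median change -0.04, against 0.06). The vault RNA VTRNA1-3 fell by 1.52 and VTRNA1-1 rose by 0.93. DND1 and FCHSD1 rose by 0.48 and 0.41, and DIAPH1, an actin-nucleating formin, fell by 0.32. Of these 5, VTRNA1-3 alone was called whichever array was left out, and the adjusted p of VTRNA1-1, DND1, FCHSD1 and DIAPH1 reached 0.0739, 0.0778, 0.123 and 0.0611. SLC25A2, a mitochondrial ornithine carrier and the next measured gene after PCDHB15, was not called (-0.50 ± 0.19, limma adjusted p = 0.0906).

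The machinery of promoter choice changed in part. CTCF itself read 9.34, 9.40 and 9.44 with NCT-503, against 9.41, 9.42 and 9.38 with DMSO, and its groups overlapped (95% interval of the change -0.17 to 0.16). Of 13 measured genes of the insulator and cohesin list, 5 fell and 2 rose (53.8% called, against 33.5% of all genes). All 13 were above the median gene in DMSO, and brighter genes were called more often. With the dimmer 50% of genes left out, 2377 of 7390 genes were called lower and 2153 higher. The list gave 5 and 2 there as well. ESCO2, a cohesin acetyltransferase of S phase, fell by 1.58 ± 0.09, WAPL, which releases cohesin from DNA, by 0.81 ± 0.10, and HDAC8, the cohesin deacetylase, by 0.66 ± 0.09. The core subunit SMC1A fell by 0.52. The alternative subunits moved oppositely, with STAG1 at -0.50 and STAG2 at 0.44. ZNF143, a factor found with CTCF at promoters, rose by 0.49, whereas RAD21, a core cohesin subunit, was not called (0.19, limma adjusted p = 0.180). The median of the list was -0.01, against 0.06 over all genes.

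Among 14 measured genes of DNA methylation and silencing, 7 fell and 3 rose (71.4% called, against 33.5% of all genes), with a median of -0.27, against 0.06 over all genes. In DMSO 13 of the 14 were above the median gene. With the dimmer 50% of genes left out, 10 of the list were called lower and 2 higher, against 2377 and 2153 of 7390 genes. The list is mixed in function, and the 7 falls include TET2, which acts against DNA methylation (-0.36 ± 0.09, limma adjusted p = 0.0233). TET2 was called in 2 of 6 fits without 1 array. The count of falls was 4 without each of 3 arrays (NCT-503 a, NCT-503 b, DMSO c). UHRF1, which guides the maintenance methyltransferase to new DNA, fell by 1.36 ± 0.08, and that enzyme, DNMT1, fell by 0.56 ± 0.08. DNMT3B, a methyltransferase known to act on clustered protocadherin promoters in mouse, measured 5.15 ± 0.07 in NCT-503 and 5.73 ± 0.25 in DMSO (mean ± SD, n = 3 each; change -0.59, limma adjusted p = 0.0123). REST, the repressor of neuronal genes, rose by 0.97 ± 0.21. It was dim in DMSO (percentile 28.0), its DMSO arrays read 3.21, 3.98 and 4.05, and without single arrays the rise was 0.70 to 1.12. EHMT2 and WIZ, partners in histone methylation, rose by 0.43 and 0.40. EHMT1, of the same list, went the other way (-0.48 ± 0.08, limma adjusted p = 0.00349) and was called whichever array was left out. The WIZ call was lost in 4 of 6 fits without 1 array (limma adjusted p up to 0.0817). SMCHD1, a repressor of clustered protocadherins in mouse, was not called (-0.21, limma adjusted p = 0.0825). DNA methylation was not measured.

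**Figure D5:**
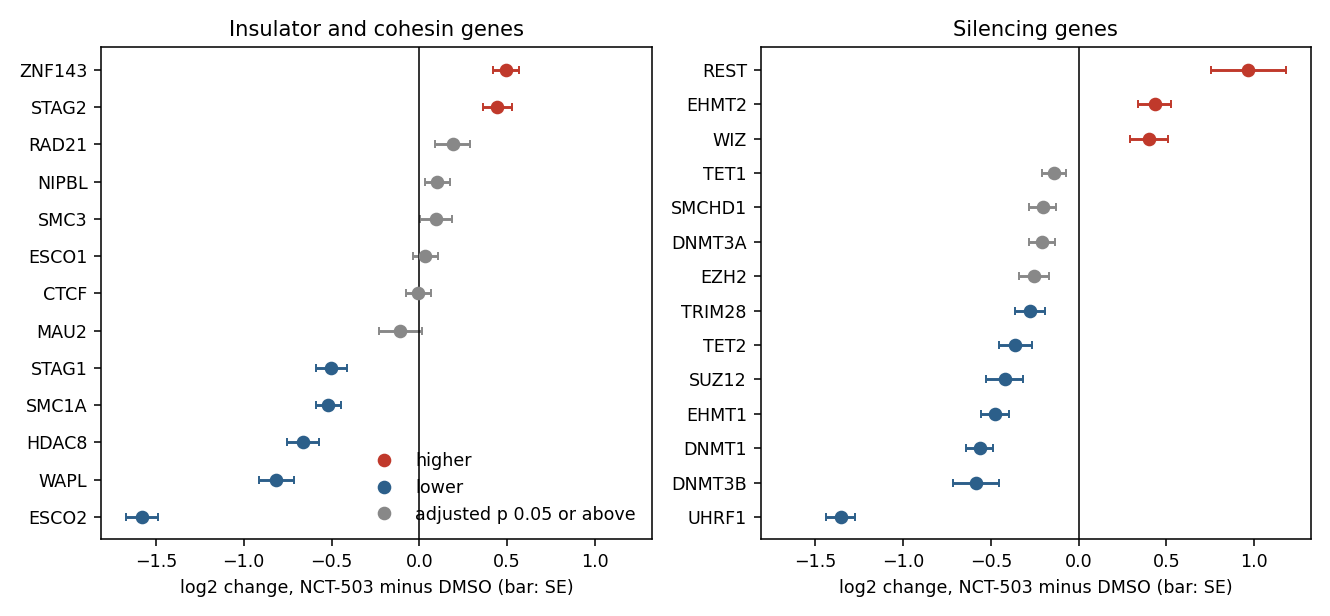
Log2 change, NCT-503 minus DMSO, of the insulator and cohesin genes (left panel) and of the silencing genes (right panel), with bars for limma's standard error. Red points were called higher, blue points lower and grey points not called. CTCF sits at 0 and SMCHD1 at -0.21, both uncalled, while ESCO2 and UHRF1 are the lowest of their panels.

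Of the proteins that act on or with protocadherins, 11 of 21 were measured, 3 rose and none fell (27.3% called, against 33.5% of all genes). Over all genes 16.4% were called higher. In DMSO 9 of the 11 were above the median gene. With the dimmer 50% of genes left out, 4 of the list were called higher, against 2153 of 7390 genes. The median change was 0.20, against 0.06 over all genes. With eBayes trend and robust settings, or after leaving out the dimmer 50% of genes, 1 gene of this list was called lower, and at an unadjusted p under 0.05 no gene was lower. All 3 that rose belong to the WAVE complex: ABI1 (0.41), CYFIP1 (0.32) and NCKAP1 (0.23), the subunit that binds PCDH10. The other WAVE genes of the list (CYFIP2, WASF1, WASF2, WASF3, ABI2 and BRK1) were not measured, so the complex as a whole was not followed. ABI1 was called without any 1 array, but the NCKAP1 call was lost each time (limma adjusted p 0.0660 to 0.107) and the CYFIP1 call in 5 of 6 (0.0218 to 0.111). ADAM10, the protease that sheds clustered protocadherins, read 8.77 ± 0.06 in NCT-503 and 8.73 ± 0.07 in DMSO (mean ± SD, n = 3 each) and was not called.

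Of 28 other cadherin superfamily genes 22 were measured, and 22.7% of them were called, against 33.5% of all genes. FAT4, an atypical cadherin of the Hippo pathway, fell by 1.27 ± 0.11, the calsyntenin CLSTN2 by 1.07 ± 0.08 and CDHR3 by 0.64 ± 0.14, while DSG2 and CLSTN3 rose by 0.44 and 0.40. The falls were called without any 1 array, but the calls of DSG2 and CLSTN3 were lost in 5 and 4 of the 6 such fits (limma adjusted p up to 0.119 and 0.0832). Among catenins, the cytoplasmic partners of classical cadherins, 3 of 9 were measured. JUP, plakoglobin, rose by 1.17 ± 0.09 and PKP4 fell by 0.44 ± 0.07. Classical cadherins, CDH2 included, were not analysed here.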

How the data were processed

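The authors' deposited table holds log2 expression values (0.578 to 13.6, array medians 4.30 to 4.33), and the submitters' processing notes name Partek. How background, summarisation and normalization were handled is not given in the sources. Of 31135 rows, 15098 had 1 gene symbol in the platform annotation, each of which an Entrez identifier tied to RefSeq's GRCh38.p14 table. Per gene the row with the highest mean over 6 arrays was used, which left 14779 genes. The fit used R 4.3.3 and limma 3.58.1 (functions lmFit, then eBayes; 3 NCT-503 against 3 DMSO arrays, no covariates, two-sided, Benjamini-Hochberg adjustment over all genes). The steps were tested on simulated data. Changes are NCT-503 minus DMSO, with the SE over 3 arrays per group. Scanner values were not used, so no gene was set against background, and changes of dim genes may be understated. Over all genes 2419 were called higher and 2534 lower, so 48.8% of calls were higher, against 60.4% with arrays centred on their 75th percentile.

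Members, lists and tests were chosen with earlier results of these data known. All members were accounted for. Values by array were given for called members whose groups do not overlap, and further members and neighbours were named after their values were seen. Of other lists, the rule named up to 4 called genes with the largest change, plus CTCF, RAD21, SMCHD1 and DNMT3B. The other called genes named from these lists, and the uncalled ADAM10 and SLC25A2, were chosen after their values were seen. For PCDH11Y the call alone is given. The alternatives, 18 in all, were other moderation, weights, scaling, filters, row choice and threshold, a replicate block and leaving out each array. Same-letter arrays of the groups did not deviate together (correlations of deviations 0.003 to 0.037), so letters were not taken as pairs.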

Additional observations from a re-analysis of the deposited data

How the results depend on the processing

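PCDH9, PCDH1, PCDH18, PCDH17, PCDH19 and PCDH10 were called in the same direction under all 18 alternatives, and PCDHB15 under the 17 that tested it. The count of protocadherins called lower stayed at 4 or 5, and it was 4 with the letters as a replicate block. The count called higher was 5 as reported and 4 with that block. Among partners of protocadherins 1 gene was called higher with the block, against 3. The count of protocadherins called higher was 3 without moderation, with every row tested and at an adjusted p under 0.01, and 3 to 4 without single arrays, since PCDH12 and PCDH11Y lost their calls; the cause was not tested. Among uncalled genes, signs turned with arrays centred on the median for CTCF (0.036), PCDHB16 (0.042) and PCDH7 (0.038), and on the 75th percentile for CTCF (0.062), PCDHB16 (0.068), PCDH7 (0.065) and PCDH20 (0.0058). With quantile normalization PCDHB16 was at 0.034. Without single arrays the changes ran from -0.030 to 0.020 for CTCF, -0.037 to 0.039 for PCDHB16, -0.040 to 0.037 for PCDH7, -0.12 to 0.0092 for PCDH20, -0.45 to 0.0064 for PCDHB11 and -0.16 to 0.040 for PCDHB17P. Silencing genes called lower numbered 11 with trend and robust settings, 3 at an adjusted p under 0.01 and 4 without each of 3 arrays (NCT-503 a, NCT-503 b, DMSO c), against 7 as reported. Array signal over background was not used here, which limits the dim genes.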
